A study of Mus musculus with 12 samples.

Results

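The genes examined here encode 8 proteins of innate and mucosal defence: the serum amyloid A proteins Saa1, Saa2 and Saa3, lactoferrin (Ltf), lipocalin 2 (Lcn2), complement component 3 (C3), the polymeric immunoglobulin receptor (Pigr) and mucin 15 (Muc15). They were chosen by name as acute-phase and mucosal defence genes, and all 8 were among the 21743 genes of the count table. Earlier results of these data were known at the choice, so the direction of their changes is a description and not a test. The study itself lists Saa1, Saa2, Pigr and Muc15 among genes higher in luminal than in tumor cells. All 8 passed the filter on low counts. The RNA of single cells was counted in droplets (Drop-seq), where a unique molecular identifier (UMI) lets each captured molecule be counted once.

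Cells came from 2 MMTV-Cre; Brca1 flox/flox mice on a mixed C57BL/6 and 129/Sv background, an animal model of BRCA1-deficient breast cancer in which Cre is driven by a mammary tumor virus promoter. From mouse 1 the mammary gland gave MG1 (2 libraries, 818 cells) and a mammary tumor gave MT1 (5 libraries, 7690 cells). From mouse 2 the gland gave MG2 (2 libraries, 2335 cells) and the tumor MT2 (3 libraries, 10314 cells). All suspensions had been depleted of hematopoietic and endothelial cells, all groups carry the floxed alleles, and the age and reproductive state that the study's methods give for gland donors (virgin or pregnant) are not tied there to these 2 tumor-bearing mice. Libraries of a group repeat the preparation of 1 tissue of 1 animal, so the p-values below cover the spread between libraries and not between mice.

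An acute-phase response is the change in secreted proteins that follows infection or injury. Cytokines such as interleukin 6, interleukin 1 and tumor necrosis factor act through the transcription factors STAT3, C/EBP and NF-kB to raise serum amyloid A, lipocalin 2, C3 and other proteins, in the liver and in epithelia. The lactating mammary gland adds to this a milk defence: lactoferrin withholds iron, the polymeric immunoglobulin receptor carries dimeric IgA into milk, and mucins coat the epithelial surface and the milk fat globule. Of the 8 proteins, Pigr and Muc15 are made as membrane proteins, and Pigr is released by cleavage.

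The 3 serum amyloid genes lie close together on chromosome 7 (GRCm38). Saa3 spans 46711998 to 46715700 on the minus strand, Saa1 46740497 to 46742980 on the minus strand and Saa2 46751790 to 46754313 on the plus strand. The annotated transcripts of Saa1 and Saa2 (609 and 606 bases) were 94.39% identical over 606 aligned bases, and 140 of their last 150 bases matched. How the authors' counting divided reads between such copies is not given in the sources used here, so the split between Saa1 and Saa2 is uncertain. Saa3 shared 76.02% of 492 aligned bases with Saa1.

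The 250 bases before the RefSeq start sites of the 3 genes are shown because in mouse 2 Saa1 and Saa2 fell from gland to tumor and Saa3 rose. For Saa2 and Saa3 these start sites lie inside the spans given above, which are those of the GENCODE annotation, so the windows overlap the spans. The windows are RefSeq sequences of GRCm38.p6, read 5′ to 3′ on the strand of the gene, from chr7:46742981-46743230 (Saa1, minus), chr7:46751583-46751832 (Saa2, plus) and chr7:46715677-46715926 (Saa3, minus). Capitals mark matches on either strand to a C/EBP motif (TTNNGNAA), a STAT motif (TTCNNNGAA) or the NF-kB consensus.
Saa1: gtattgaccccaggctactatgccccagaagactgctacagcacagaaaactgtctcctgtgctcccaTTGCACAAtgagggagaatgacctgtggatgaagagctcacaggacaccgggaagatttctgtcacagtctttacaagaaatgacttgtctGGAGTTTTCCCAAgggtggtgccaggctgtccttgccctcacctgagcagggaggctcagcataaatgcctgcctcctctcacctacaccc
Saa2: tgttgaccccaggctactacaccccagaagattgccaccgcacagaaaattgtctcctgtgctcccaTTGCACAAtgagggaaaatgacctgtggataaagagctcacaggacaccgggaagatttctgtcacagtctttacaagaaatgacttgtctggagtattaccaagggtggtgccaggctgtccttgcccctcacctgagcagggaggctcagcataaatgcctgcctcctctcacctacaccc
Saa3: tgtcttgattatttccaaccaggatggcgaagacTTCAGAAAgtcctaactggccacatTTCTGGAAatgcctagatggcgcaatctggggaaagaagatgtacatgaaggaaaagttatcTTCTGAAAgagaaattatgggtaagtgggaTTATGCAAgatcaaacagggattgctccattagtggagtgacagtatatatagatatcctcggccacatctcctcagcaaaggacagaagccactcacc

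The windows of Saa1 and Saa2 were 95.58% identical over 249 aligned bases. Both held a C/EBP match, TTGCACAA, that begins 182 bases before the start of Saa1 and 183 before that of Saa2. Saa1 also held an NF-kB match, GGAGTTTTCC, that overlaps its second C/EBP match, TTTCCCAA, and the Saa2 window held neither of these stretches. Saa3 held 4 C/EBP matches. The C/EBP motif was present in 36.85% of the 32851 promoter windows of the same length, the NF-kB consensus in 9.55% and the STAT motif, which none of the 3 windows held, in 7.02%. A match is a stretch of letters and was not measured as a binding site.

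The libraries ranged from 693333 to 14841414 UMIs and from 1784 to 4842 median UMIs per cell. MG1 replicate 2 was the smallest, with 105 cells, and stood apart from MG1 replicate 1 in the luminal secretory markers, whose summed level outside stromal clusters was 14834 CPM (UMIs of a gene scaled to the library total) against 4388 CPM in replicate 1. Over all its cells, the summed plasma cell marker level was 2606 CPM against 185 CPM in replicate 1. Over all cells, Brca1 had 0 UMIs in both MG1 libraries, 21 in MG2, 202 in MT1 and 425 in MT2. Drop-seq reads the 3′ ends of RNA, so these counts do not check the deletion. Clustering, run without the 8 genes, gave luminal secretory-like (1214 cells), luminal hormone-sensing-like (1261) and basal-like (339) clusters mainly of glands. The stromal clusters were fibroblast-like (687), endothelial-like (248) and immune-like (182). MT1 made up nearly all of 2 epithelial-like clusters led by Sfrp1 and Pla2g7 (3557 cells) and by Ccl20 and Tnfrsf11b (2488), and most of an unnamed cluster led by Prl2c3 and Cav1 (1403). MT2 made up unnamed clusters led by Grem1 and Ptgs2 (5817) and by Cenpe and Top2a (3961).

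Levels were first read per library over the 20040 cells outside the stromal clusters, as CPM on TMM-scaled totals, to ask how the defence genes of the gland compare with those of the tumor of the same animal. In mouse 2, 7 of the 8 genes fell from gland to tumor and Saa3 rose. In mouse 1, Saa1, Ltf, Lcn2, Pigr and Muc15 fell, and Saa2, Saa3 and C3 did not pass the test. The edgeR quasi-likelihood test at an adjusted p under 0.05 thus called 5 of 8 genes in mouse 1, where it called 59.3% of all 13654 genes tested (32.1% higher and 27.1% lower). It called 8 of 8 in mouse 2, where it called 67.0% (32.7% higher and 34.2% lower). The libraries of gland and tumor did not overlap for 4 of the 8 genes in mouse 1 (Ltf, Lcn2, Pigr and Muc15), against 62.5% of all genes, and for 8 of 8 in mouse 2, against 80.9%. The median log2 fold change of the 8 genes, chosen with earlier results known, was -1.37 in mouse 1 against 0.11 over all genes. In mouse 2 it was -9.38 against -0.05, or -9.34 with genes at 0 UMIs set to their bound. Where a gland was left with 1 library, that library was assumed to vary like those of the other groups. In bulk sums of this kind, fewer cells of a type and less RNA per cell cannot be told apart.

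**Figure D1:**
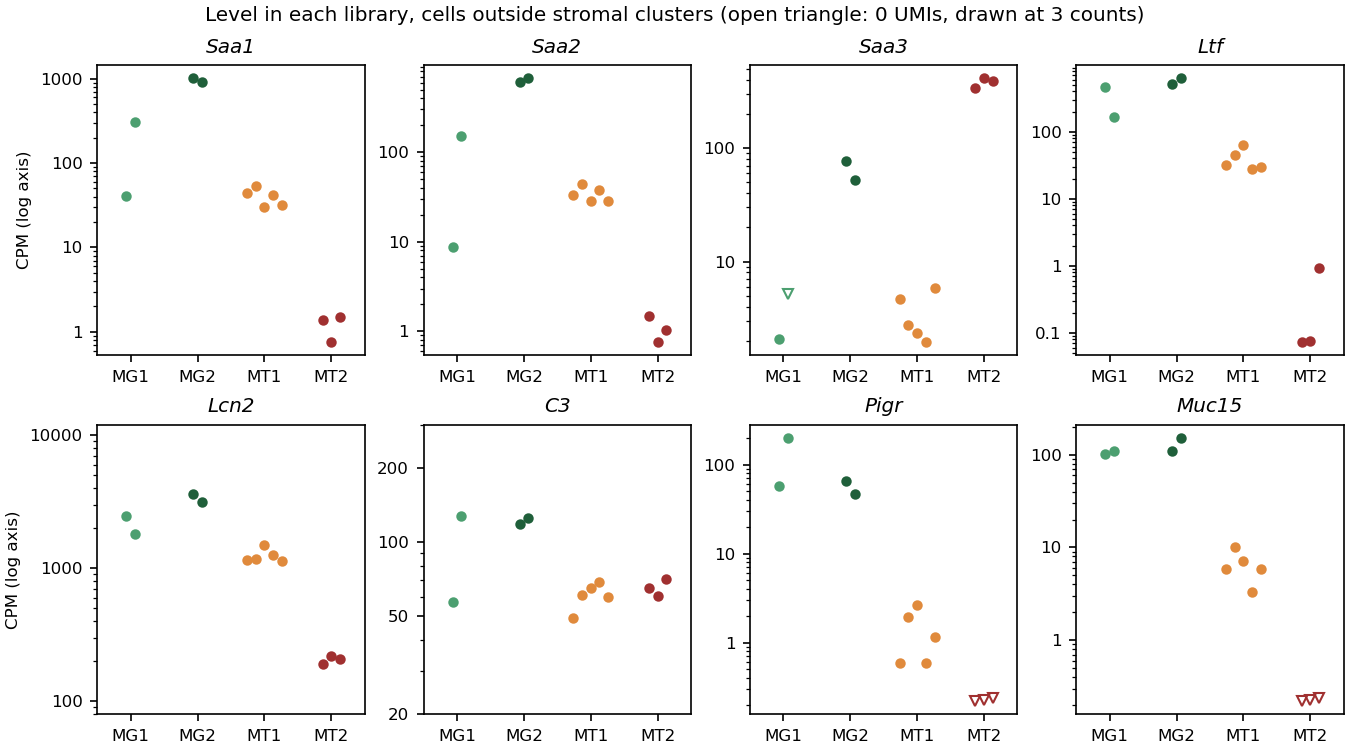
CPM (log axis) of each gene in each library of MG1, MG2, MT1 and MT2, over cells outside stromal clusters. Open triangles are libraries with 0 UMIs, drawn at the level of 3 counts. Saa3 is the gene of the 8 with its highest values in MT2, and Pigr and Muc15 have 0 UMIs in all 3 MT2 libraries.

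Saa1 and Saa2 encode the apolipoproteins of high-density lipoprotein that dominate the systemic acute phase. Saa1 had 40.8 and 311 CPM in the MG1 libraries and 1008 and 924 CPM in MG2. It had 44.0, 52.9, 30.0025, 41.5 and 32.0 CPM in MT1 and 1.40, 0.763 and 1.49 CPM in MT2. The MG2 libraries were thus far above all others, and MG1 replicate 1 lay inside the range of MT1. Saa1 fell by 9.61 in mouse 2 on the log2 scale (SE 0.60, edgeR adjusted p 1.23e-10). In mouse 1 it fell by 1.97 (SE 0.45, adjusted p 0.00108), and this rested on MG1 replicate 2. Without that library the change was -0.04 (adjusted p 0.924), and without MG1 replicate 1 it was -2.87.

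Saa2 had 8.74 and 150 CPM in MG1, 601 and 667 CPM in MG2, 28.8 to 43.9 CPM in MT1 and 0.763 to 1.47 CPM in MT2. All MT1 libraries lay between the MG1 libraries. In mouse 2 Saa2 fell by 9.16 on the log2 scale (SE 0.65, adjusted p 7.14e-10), and it was not called in mouse 1 (-0.77, SE 0.58, adjusted p 0.259). The mouse 1 value of Saa2 turned on 1 library: it was -2.01 without MG1 replicate 1 and 1.99 without MG1 replicate 2, each past the threshold.

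Saa3, the serum amyloid gene known for expression outside the liver, in macrophages, adipose tissue and epithelia, had its highest levels in MT2. It had 2.08 and 0 CPM in MG1, where the 0 allows up to 5.18 CPM, and 77.6 and 52.9 CPM in MG2. In MT1 it had 4.69, 2.74, 2.34, 1.96 and 5.83 CPM, and in MT2 342, 412 and 390 CPM. The 3 MT2 libraries lay above all others, and the MG1 and MT1 libraries overlapped. Saa3 rose from MG2 to MT2 by 2.55 on the log2 scale (SE 0.24, adjusted p 4.05e-08), and the change in mouse 1 was not called (0.94, SE 0.73, adjusted p 0.277). The difference between the mice in this change was not called either (1.61, SE 0.94, adjusted p 0.177). Leaving out 1 library moved the mouse 1 change between 0.63 and 7.30 and the difference between -4.72 and 2.05. Between the tumors, MT1 was lower than MT2 by -6.89 (SE 0.24, adjusted p 3.03e-14).

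Of the iron-binding proteins, lactoferrin takes up free iron in milk and in neutrophil granules. Ltf (chromosome 9, 111019271 to 111042767, plus strand) had 462 and 168 CPM in MG1 and 520 and 625 CPM in MG2. It had 31.7, 44.7, 63.8, 28.2 and 29.7 CPM in MT1 and 0.0737, 0.0763 and 0.943 CPM in MT2. The groups of each mouse did not overlap. The highest MT1 value, in replicate 3, held 182 of its 408 UMIs in 1 cell, and it was 35.3 CPM without that cell. Ltf fell by 3.02 on the log2 scale in mouse 1 (SE 0.33, adjusted p 7.75e-07), and in mouse 2 it fell by 10.57 (SE 0.57, adjusted p 1.44e-11). Both calls held without any 1 library, but the size moved to -1.93 in mouse 1 without MG1 replicate 1 and to -12.52 in mouse 2 without MT2 replicate 3.

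Lipocalin 2 binds the siderophores with which bacteria gather iron. Lcn2 (chromosome 2, 32384633 to 32388252, minus strand) was the most counted of the 8 genes in MG1, MG2 and MT1, with 2446 and 1808 CPM in MG1 and 3585 and 3118 CPM in MG2. It had 1145, 1173, 1491, 1265 and 1137 CPM in MT1 and 190, 219 and 209 CPM in MT2. The 4 groups did not overlap. Lcn2 fell by 0.78 on the log2 scale in mouse 1 (SE 0.16, adjusted p 0.000433), and in mouse 2 it fell by 4.02 (SE 0.19, adjusted p 2.10e-12). The mouse 1 call was lost without MG1 replicate 1 (-0.42, adjusted p 0.0591).

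C3 is the protein on which the complement pathways converge. C3 (chromosome 17, 57203970 to 57228136, minus strand) had 57.0 and 128 CPM in MG1, 118 and 125 CPM in MG2, 49.3 to 68.6 CPM in MT1 and 60.1 to 70.8 CPM in MT2. MG1 replicate 1 lay among the tumor libraries and the other gland libraries above them. In mouse 2 C3 fell by 0.90 on the log2 scale (SE 0.21, adjusted p 0.000976), and it was not called in mouse 1 (-0.45, SE 0.23, adjusted p 0.0989). The mouse 1 change was called, as a fall, with DESeq2 (-0.66, adjusted p 0.0189), with RLE scaling (-0.60, adjusted p 0.0376), without the cells of highest doublet score (-0.58, adjusted p 0.0410) and without MG1 replicate 1 (-0.94, adjusted p 0.00181), and it was 0.13 without MG1 replicate 2 (adjusted p 0.603). With the stromal clusters included it was -2.26 (adjusted p 2.17e-07). The mouse 2 call was lost without MG2 replicate 2 (-0.64, adjusted p 0.0657). The tumors did not pass the test against each other (MT1 against MT2 -0.09, SE 0.17, adjusted p 0.661).

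The mucosal genes Pigr and Muc15 were the 2 of the 8 with no UMI in MT2. Pigr (chromosome 1, 130826684 to 130852249, plus strand) had 57.0 and 200.5 CPM in MG1 and 65.9 and 46.8 CPM in MG2. It had 0.587 to 2.66 CPM in MT1, which is 1 to 17 UMIs in a library, and 0 UMIs in MT2. Pigr fell by 6.19 on the log2 scale in mouse 1 (SE 0.47, adjusted p 3.53e-08), with -6.88 and -5.17 without MG1 replicate 1 and 2 and -6.78 without MT1 replicate 3. MG2 was at least 738-fold higher than MT2, from 3 counts over the group at 0 (adjusted p 1.47e-09).

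Muc15 (chromosome 2, 110721340 to 110739527, plus strand) had 102 and 111 CPM in MG1, 111 and 153 CPM in MG2 and 3.33 to 10.2 CPM in MT1, and it had 0 UMIs in MT2. It fell by 4.07 on the log2 scale in mouse 1 (SE 0.25, adjusted p 3.93e-09). MG2 was at least 1732-fold higher than MT2 (adjusted p 1.10e-12). For both mucosal genes every tumor library lay below every gland library.

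**Figure D2:**
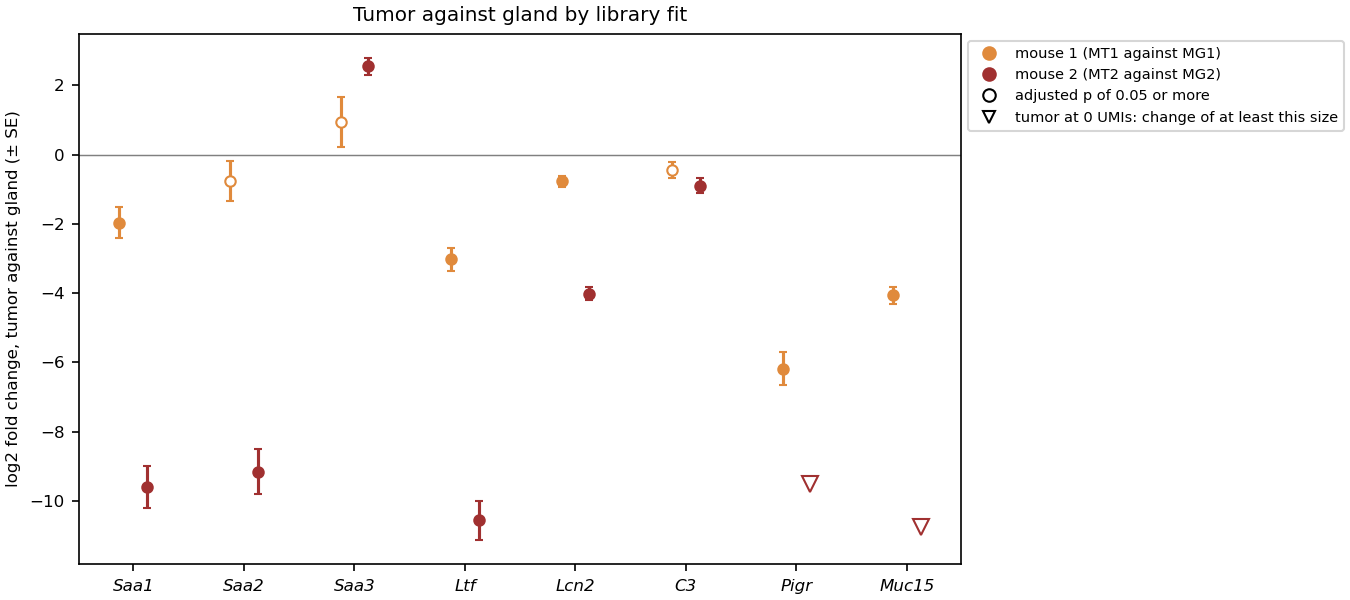
Log2 fold change of each gene from gland to tumor with its SE, in mouse 1 (MT1 against MG1) and mouse 2 (MT2 against MG2). Open circles did not pass an adjusted p of 0.05, and open triangles mark the smallest change that 0 UMIs in MT2 allow. Saa3 lies above 0 in mouse 2, and the other values of mouse 2 lie below 0.

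The change from gland to tumor was compared between the mice by its interaction term, for which 43.5% of all genes were called (17.1% higher and 26.4% lower). It was called for 6 of the 8 genes, and all 6 changed more negatively in mouse 2. For Lcn2 the difference was -3.25 (SE 0.25, adjusted p 8.93e-09), for Ltf -7.55 (SE 0.71), for Saa1 -7.63 (SE 0.76) and for Saa2 -8.38 (SE 0.87). Pigr and Muc15 were also called, with a size set by the 0 UMIs of MT2. All 6 stayed called without any 1 library, and the lowest and highest values doing so were -9.55 and -6.70 for Saa1, -11.13 and -7.11 for Saa2 (both set by the MG1 libraries) and -9.48 and -7.06 for Ltf (lowest without MT2 replicate 3). C3 was not called (-0.45, SE 0.31, adjusted p 0.264) except without MG1 replicate 2 (-1.01, adjusted p 0.00234), nor was Saa3.

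The tumors and the glands were then set against each other. Between MT1 and MT2, 7 of 8 genes were called where 68.4% of all genes were (35.3% higher and 33.1% lower in MT1), and the libraries did not overlap for 7 of 8 genes, against 63.2% of all genes. Saa1, Saa2, Ltf, Lcn2, Pigr and Muc15 were higher in MT1 and Saa3 in MT2. Lcn2 was 6.03-fold and Saa1 31.8-fold higher in MT1. Between the glands, 3 of 8 genes were called where 5.37% of all genes were (2.56% higher and 2.81% lower in MG1), and they were the serum amyloid genes. The gland libraries did not overlap for 6 of 8 genes, all but C3 and Pigr, against 45.2% of all genes. MG1 was lower than MG2 in Saa1 (-2.64, SE 0.52, adjusted p 0.00665), Saa2 (-3.43, SE 0.63, adjusted p 0.00373) and Saa3 (-5.28, SE 0.51, adjusted p 1.20e-05). With MG1 reduced to 1 library, whose spread was then taken from the other groups, Saa1 was -1.72 and -4.57 and Saa2 -2.16 and -6.18 (without replicate 1 and 2). Saa3 had 0 UMIs in MG1 replicate 2, so its value without replicate 1 is set by the prior count of the fit. With only the 4 gland libraries in the fit, none of these 3 was called (adjusted p 0.401, 0.402 and 0.054), and 8 genes were called in all. Lcn2 did not pass the test between the glands (-0.65, adjusted p 0.0610), but it was called lower in MG1 with DESeq2 (-0.54, adjusted p 0.0278), with all cells (-0.81, adjusted p 0.0221), without gland cells in tumor clusters and tumor cells in gland clusters (-0.71, adjusted p 0.0375) and without MG1 replicate 1 (-0.98, adjusted p 0.00500). Of the other genes not called between the glands, Ltf was called lower in MG1 (-1.86, adjusted p 0.00680) and Pigr higher (1.75, adjusted p 0.000912) without MG1 replicate 1, and C3 was called lower (-1.10, adjusted p 0.00331) without MG1 replicate 2.

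With the mouse as the replicate (4 sums, mouse as block), edgeR called 0 of 14946 genes, with 2217 at an unadjusted p under 0.05. The members had adjusted p from 0.309 (Pigr) to 0.602 (C3). DESeq2 with the same block called 1337 genes, 5 of the 8 among them: Saa1, Saa2, Ltf, Lcn2 and Pigr.

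Levels were next read by cell class, pooled over the libraries of a group. These are descriptions with no test except where one is named. Luminal secretory cells are the milk-producing cells of the gland, and in both MG2 libraries their cluster had the highest level of Lcn2, Saa1, Saa2, Ltf, Muc15 and Pigr. Pooled, Lcn2 reached 5635 CPM, Saa1 2027 CPM, Saa2 1338 CPM, Ltf 1039 CPM, Muc15 251 CPM and Pigr 116 CPM there. C3 was higher in MG2 fibroblast-like cells (2807 CPM) than in secretory-like cells (222 CPM). For Saa3 the order of these classes differed between the libraries. It was at 42.3 CPM in fibroblast-like cells (7 UMIs) and 174.6 CPM in secretory-like cells of replicate 1, and at 358 CPM (27 of 69 UMIs in 1 cell) and 124 CPM in replicate 2. In MG1 secretory-like cells, Lcn2 had 4287 CPM, Ltf 834, Saa1 217, Muc15 200, Pigr 192, Saa2 79.1 and Saa3 4.16. The MG1 libraries differed here, and Saa2 was at 18.8 CPM in replicate 1 (244 cells) and 402 CPM in replicate 2 (31 cells).

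The secretory-like cluster was 39.0% of MG2 cells and held 88.4% of the Saa1 UMIs of that gland, 89.2% of the Saa2 UMIs, 87.6% of Pigr, 86.3% of Saa3, 80.4% of Muc15, 76.6% of Ltf and 70.7% of Lcn2. C3 was the exception, since 49.3% of its MG2 UMIs were in fibroblast-like cells, which were 5.87% of the cells. The most expressing cells carried much of the total. The top 91 of 911 secretory-like cells held 75.7% of the Saa1 UMIs of that class, and 1 cell held 276 Saa1 UMIs.

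**Figure D3:**
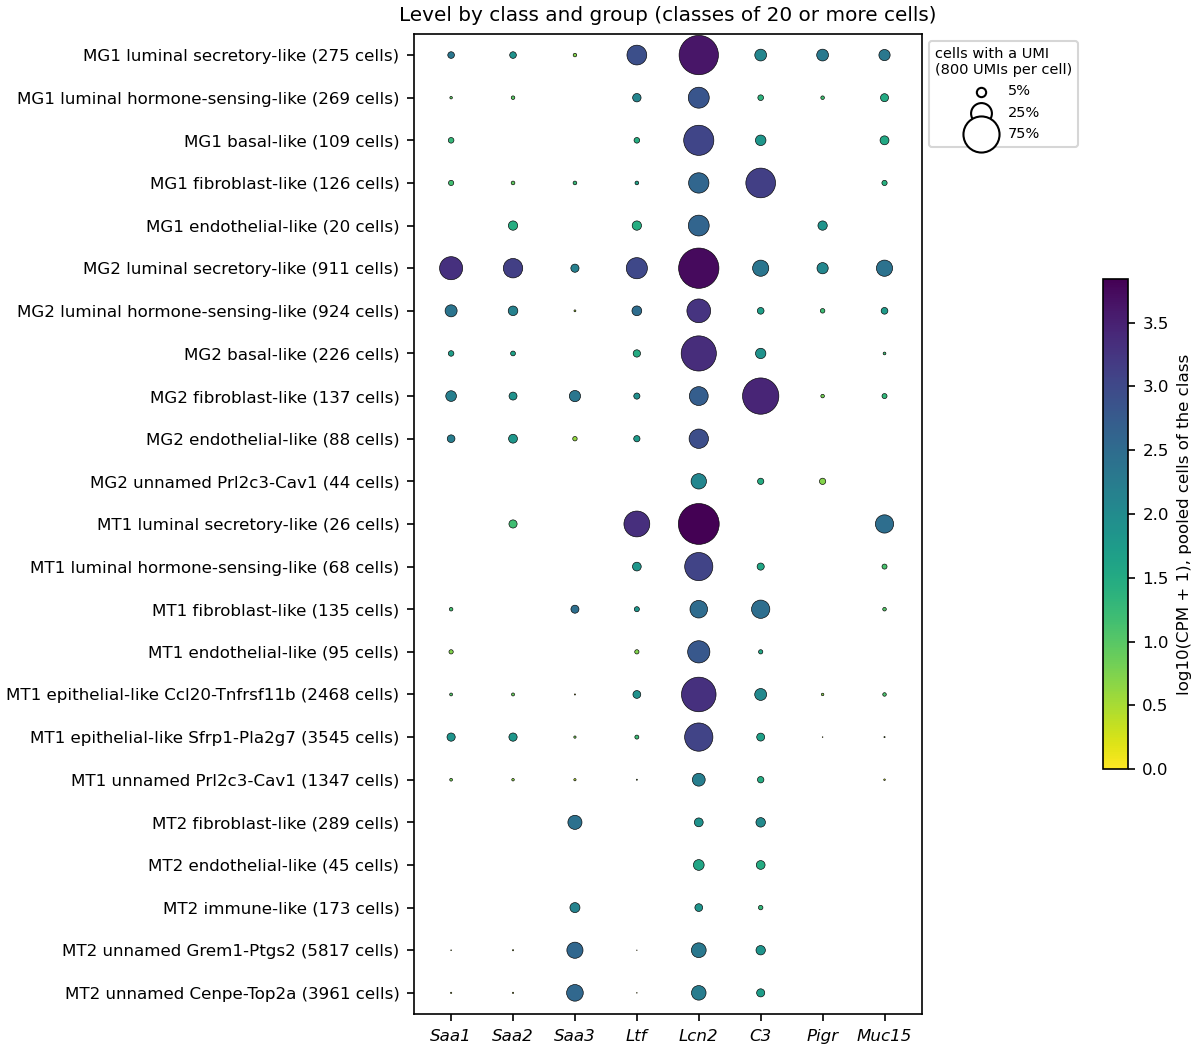
Each gene in each class of 20 or more cells by group. Color is log10(CPM + 1) of the pooled cells, and dot area is the share of cells with a UMI after thinning to 800 UMIs per cell. In the glands, Saa1, Saa2 and Muc15 are highest in secretory-like cells and C3 in fibroblast-like cells, and in MT2 Saa3 is highest in the Grem1-Ptgs2 and Cenpe-Top2a clusters.

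Lcn2 was also counted in other gland classes. After thinning each cell to 800 UMIs, 93.5% of MG2 secretory-like cells had an Lcn2 UMI (98.8% unthinned, median 2523 UMIs per cell). The share was 71.2% in basal-like cells (91.2% unthinned, median 1978.5) and 32.5% in hormone-sensing-like cells (47.8% unthinned, median 2574.5). Endothelial-like cells of MG2, read as a class that should lack it, had 21.6% (48.9% unthinned, median 2417). Free RNA was gauged with 6 milk genes, whose level in endothelial-like cells was 11.1% of that in secretory-like cells, where Lcn2 was at 15.1%. The Lcn2 level in endothelial-like cells was 1025 CPM in MG2 replicate 1 (48 of 205 UMIs in 1 cell) and 542 CPM in replicate 2. In basal-like cells the milk genes were at 2.48% and Lcn2 at 40.5%. In MG2 hormone-sensing-like cells Saa1 was at 11.4% and the milk genes at 13.5%, and the top 92 of 924 cells held 93.6% of the Saa1 UMIs, with 51 in 1 cell. Of the 77 with an Saa1 UMI after thinning, 42.9% had an Saa2 UMI, 71.4% one of Lcn2 and 7.79% one of Muc15, against 1.89%, 28.9% and 2.13% of the 847 without. Doublets were kept, and their part and that of free RNA in these cells was not tested. The split of reads between Saa1 and Saa2 is uncertain here too.

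In MG2 secretory-like cells the Saa genes tended to be counted in the same cells. Of the 279 MG2 secretory-like cells with an Saa1 UMI after thinning, 63.4% had an Saa2 UMI, against 3.32% of the 632 cells without. Of the 35 with an Saa3 UMI, 97.1% had one of Saa1. The split between Saa1 and Saa2 is uncertain, so reads of either gene may have been counted as the other. Pigr was found in 15.1% of cells with Saa1 and 3.80% of those without, and C3 in 21.9% and 12%. Ltf went the other way, with 16.5% and 29.7%. These cells come from 2 libraries of 1 gland and are no replicates of it.

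**Figure D4:**
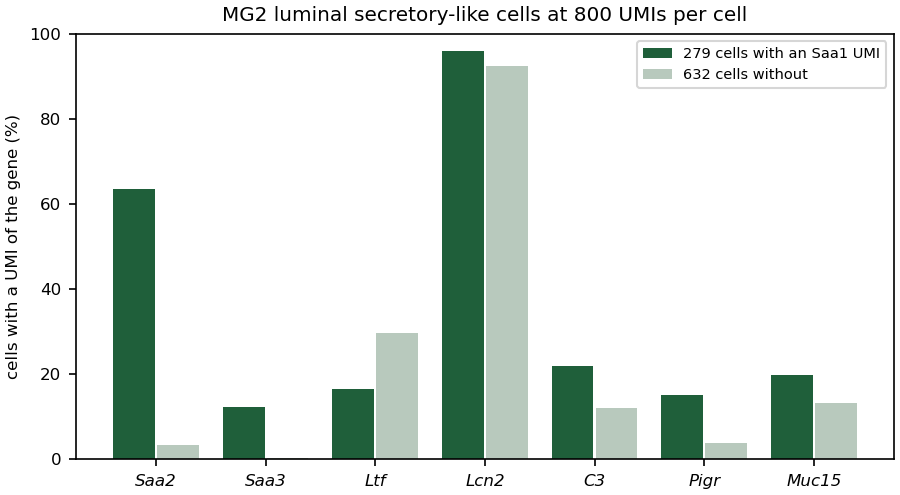
Share of MG2 luminal secretory-like cells with a UMI of each other gene, among 279 cells with and 632 cells without an Saa1 UMI, all thinned to 800 UMIs per cell. Saa2, whose split from Saa1 is uncertain, shows the widest gap, and Ltf is lower among cells with Saa1.

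The glands were also compared within this class. In MG1 secretory-like cells Saa1 was at 93.9 CPM in replicate 1 (244 cells) and 873 CPM in replicate 2 (31 cells), and in MG2 at 2078 and 1974 CPM. Pigr was at 122 and 566 CPM in MG1 and at 140 and 90.9 CPM in MG2. Tested on class sums over libraries, edgeR called 13 genes (0.15% of 8689) between MG1 and MG2 in this class, and Saa3 was one of them (-4.95, SE 0.55, adjusted p 0.0163). The Saa3 call was lost without MG1 replicate 1 (adjusted p 0.0934). Saa1 (-2.01, adjusted p 0.399) and Saa2 (-2.74, adjusted p 0.373) were not called. Fits that left out 1 of these 4 libraries have a lone library in 1 arm and take the spread from the other gland alone. Their values ranged from -4.15 to -1.14 for Saa1 and from -5.87 to -1.66 for Saa2, both lowest without MG1 replicate 2, and Saa2 passed the threshold in all 4 of them and Saa1 in that 1. In hormone-sensing-like cells no member was called between MT1 and MG1 (1.03% of 8444 genes were). Between the glands (0.758% called), Saa1 was called lower in MG1 (-4.33, SE 0.78, adjusted p 0.0469), a call lost without either MG2 library or either MT1 library of that fit (adjusted p from 0.0849 to 1.00).

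In MT1 the defence genes divided between the epithelial-like clusters. The Sfrp1-Pla2g7 cluster, 46.1% of MT1 cells, held 87.9% of the Saa1 UMIs and 90.6% of the Saa2 UMIs of that tumor. Saa1 was at 69.5 CPM there (53.7 to 91.3 over the 5 libraries) and at 10.1 CPM in the Ccl20-Tnfrsf11b cluster (6.16 to 16.5). The Ccl20-Tnfrsf11b cluster had the higher Lcn2 (2035 against 1193 CPM), C3 (108 against 46.7), Muc15 (11.2 against 2.38) and Pigr (3.91 against 0.542). Ltf was at 81.7 against 15.8 CPM, and 182 of its 502 UMIs in the Ccl20-Tnfrsf11b cluster were in 1 cell of replicate 3. Ltf there was at 139.7 CPM in replicate 3 and at 43.3 to 58.7 CPM in the other 4 libraries. In each of the 5 libraries Lcn2 and C3 were higher in the Ccl20-Tnfrsf11b cluster and Saa1 in the Sfrp1-Pla2g7 cluster. The Prl2c3-Cav1 cluster had the lowest Lcn2 of MT1, at 165 CPM.

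A group of 26 MT1 cells fell in the luminal secretory-like cluster. They had 6981 CPM of Lcn2, 2111 of Ltf and 296 of Muc15. Saa1 and Pigr had 0 UMIs in them, and Saa2 had 1. By the exact 95% interval, 0 of 26 cells allows up to 13.2% of such cells to have an Saa1 UMI after thinning. These cells were 0.338% of MT1 cells and held 17.8% of its Ltf UMIs and 16.9% of its Muc15 UMIs. Leaving out such tumor cells together with gland cells in tumor clusters changed none of the calls of the 8 genes in mouse 1 or mouse 2.

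In MT2, Saa3 was at 369 CPM in the Grem1-Ptgs2 cluster and 362 CPM in the Cenpe-Top2a cluster, with 15.0% and 16.0% of thinned cells holding a UMI (30.2% and 34.3% unthinned, medians 2996 and 3387). Fibroblast-like cells of MT2 had 253 CPM (11.4% of thinned cells), immune-like cells 132 (5.78%, median 2285) and endothelial-like cells 59.9 (0 of 45 thinned cells, median 2130). The immune-like level rested on replicate 2, with 24.6, 322 and 18.9 CPM in the 3 libraries (3, 63 and 4 UMIs). The part of free RNA in the levels of these stromal cells was not tested. The Grem1-Ptgs2 and Cenpe-Top2a clusters held 54.3% and 43.8% of the Saa3 UMIs of MT2. Macrophages are a known source of Saa3, and the summed level of 8 macrophage markers outside stromal clusters was 49.8 to 55.1 CPM in MT2, with all 8 detected, and at most 13 CPM in the other groups, where Adgre1 and C1qa were at 0. Its part in the Saa3 level was not tested. Lcn2 was at 204 and 176 CPM in the same clusters, and 78.8 CPM in fibroblast-like cells.

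C3 was highest in gland fibroblast-like cells, stromal cells of the collagen matrix. It was at 1137 and 2023 CPM in the MG1 libraries (102 and 24 cells), 2734 and 2870 in MG2, 191 to 362 in the 4 MT1 libraries with 20 or more such cells, and 52.4, 129 and 146 in MT2. The gland and tumor libraries did not overlap. On sums over these cells C3 fell by 2.63 on the log2 scale in mouse 1 (SE 0.33, adjusted p 9.22e-06), where 34.7% of 4128 genes were called. It fell by 4.85 in mouse 2 (SE 0.37, adjusted p 1.66e-08), where 20.7% were called. Both calls held without any 1 library. MT2 cells outside the stromal clusters also carried fibroblast markers (3719 to 4260 CPM summed, against 311 to 718 CPM in the glands).

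Saa3 and Lcn2 were also called in these cells. Saa3 was higher in MT1 than MG1 fibroblast-like cells (3.87, SE 0.87, adjusted p 0.00201), with 23.2 and 0 CPM in MG1 and 86.3 to 499.8 CPM in MT1. Few cells carried these UMIs: 10 of the 135 MT1 cells of this class had one, and 1 cell held 39 of 40 UMIs in MT1 replicate 2, 13 of 19 in replicate 3, 12 of 23 in replicate 4 and 4 of 5 in replicate 5. The call held without any 1 library. In MT1, 59.7% of all Saa3 UMIs (89 of 149) were in fibroblast-like cells, which were 1.76% of its cells. In mouse 2 Saa3 was not called in this class (0.24, SE 0.61, adjusted p 0.817). Between the glands, where 3.08% of genes were called, it was lower in MG1 (-3.53, adjusted p 0.0347). It did not pass when MG2 replicate 2 (-1.30), MT1 replicate 3 (-3.54) or MT1 replicate 4 (-3.55) was left out. Lcn2 fell in MT2 against MG2 (-2.77, SE 0.44, adjusted p 0.000113). In MG2 fibroblast-like cells Lcn2 was at 8.96% of its secretory-like level and the milk genes at 5.41%, and the part of free RNA in that fall was not tested.

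Markers of other possible sources were read in cells outside the stromal clusters. Ltf and Lcn2 are also neutrophil granule proteins. Of 10 neutrophil markers 5 were in the table, and S100a9, Mmp8 and Cxcr2 had 0 UMIs in both glands. S100a8, which encodes a calprotectin subunit, was the only one with UMIs in MG1 (115) and had 1093 in MG2. Their summed level was 8.66 to 176 CPM in MG1 and 125 to 149.9 CPM in MG2, 50.8 to 110.0 CPM in MT1 and 77.2 to 97.8 CPM in MT2, and its part in the levels of Ltf and Lcn2 was not tested. Liver is the main source of circulating Saa1 and Saa2, and the 3 hepatocyte markers in the table (Apoa1, Ahsg and Apob) had 0 UMIs in both glands. The summed luminal secretory markers were 4388 to 14834 CPM in MG1, 11297 to 11697 in MG2, 2011 to 2583 in MT1 and 129 to 168 in MT2, and their part in the fall of the defence genes was not tested. The summed epithelial markers were 7666 to 10004 CPM in MT1 and 646 to 880 in MT2.

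The genes of most similar pattern were found by correlation of log2(CPM + 10) over 53 sums of library and class, among 8640 genes. These sums share libraries, so the values are descriptions. Saa1 was closest to Saa2 (r = 0.964), where the split of reads between them is uncertain. Next for Saa1 were the whey acidic protein-type gene Wfdc3 (0.850) and the casein Csn2 (0.827). Ltf and Muc15 were closest to each other (0.897), and Pigr was closest to the milk genes Lalba (0.907) and Csn1s2a (0.882) and to Btn1a1 (0.870), which encodes a milk fat globule protein. Lcn2 was closest to the epithelial plakin gene Ppl (0.890), C3 to Clec3b (0.860), and Saa3 to the Wnt receptor gene Fzd1 (0.866).

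Other genes of the same pathways were read from 5 lists, described by counts and medians. Over all genes tested, 32.1% rose and 27.1% fell in mouse 1 and 32.7% and 34.2% in mouse 2, with medians of 0.11 and -0.05. Of the acute-phase and antimicrobial list, which excludes the 8 genes, 18 genes were tested: 5 rose and 7 fell in mouse 1, and 4 rose and 10 fell in mouse 2. Thus 12 of 18 were called in mouse 1 and 14 of 18 in mouse 2, against 59.3% and 67.0% of all genes, and the median log2 fold changes were -0.18 and -2.23. Fgb, which encodes a fibrinogen chain, fell by 6.10 in mouse 1 (adjusted p 1.31e-06) and was at least 5813-fold higher in MG2 than MT2. The MG1 libraries lay far apart in Fgb, at 1344 and 44.9 CPM, and it was the second leading gene of the hormone-sensing-like cluster. The summed hormone-sensing markers were 2048 to 2906 CPM in MG1, 1916 to 2020 in MG2, 106 to 163 in MT1 and 55.5 to 65.4 in MT2, and their part in the change of Fgb was not tested. Reg3g, a bactericidal lectin gene, fell by 4.11 in mouse 1 (adjusted p 5.45e-07) and was at least 673-fold higher in MG2 than in MT2. Fgg, another fibrinogen chain gene, fell in both mice (-3.77 and -9.32, adjusted p 4.04e-06 and 3.03e-10). Against this direction, Lbp, which encodes the lipopolysaccharide-binding protein, rose by 2.52 and 0.99 (adjusted p 5.59e-08 and 7.20e-05). Orm1, the orosomucoid gene, rose too, at least 22.7-fold in mouse 1 and by 1.08 on the log2 scale in mouse 2 (adjusted p 2.57e-06 and 0.00181).

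The complement list had 14 genes tested beside C3. In mouse 1, 11 fell and 2 rose (median -2.75), and in mouse 2, 6 fell and 5 rose (median -0.66). That is 13 and 11 of 14 called, against 59.3% and 67.0% of all genes, whose medians were 0.11 and -0.05. C4b, a homologue of C3 in the classical pathway, fell in both mice (-4.94 and -3.86, adjusted p 4.45e-11 and 1.42e-11). C2, a classical pathway protease gene, changed by -4.18 and -7.08, and Cd55, an inhibitor that protects cells from complement, by -3.93 and -7.31 (adjusted p at most 1.21e-05). Cfp, the stabilizing factor properdin, rose by 2.19 and 0.82 (adjusted p 0.00287 and 0.0260), and MG1 held only 5 of its UMIs.

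Of 6 mucosal immunoglobulin and mucin genes tested, 4 fell and 1 rose in mouse 1, and 6 of 6 fell in mouse 2 (medians -1.88 and -7.75, against 0.11 and -0.05 over all genes). The shares of all genes called were 59.3% and 67.0%. Muc4, a membrane mucin gene, fell by 4.43 in mouse 1 (adjusted p 4.76e-07) and was at least 587-fold higher in MG2 than MT2. Fcgbp, which encodes a mucus protein, fell in both mice (-1.49 and -9.70, adjusted p 0.000113 and 8.55e-13). The list also holds Cldn7, a tight junction gene that is neither an immunoglobulin nor a mucin gene and is also among the epithelial markers. Cldn7 fell in both mice (-2.26 and -8.34, adjusted p 5.51e-07 and 1.68e-12).

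Of 20 genes for cytokine inducers, their receptors and downstream regulators, 4 rose and 11 fell in mouse 1, and 6 rose and 9 fell in mouse 2 (medians -0.72 and -0.17, against 0.11 and -0.05 over all genes). That is 15 of 20 called in each mouse, against 59.3% and 67.0% of all genes. The transcription factor gene Cebpa fell in both mice (-2.49 and -5.49, adjusted p 4.59e-05 and 6.30e-09). The cytokine receptor genes Lifr (-0.84 and -2.30) and Il17ra (-1.82 and -0.55) fell too. The NF-kB inhibitor family genes Nfkbiz (1.62 and 0.62) and Nfkbia (0.89 and 0.50) rose (adjusted p from 1.88e-05 to 0.0424). Of 5 receptors for the defence proteins tested, 1 rose and 1 fell in mouse 1, and 2 rose and 2 fell in mouse 2. Their medians were -0.19 and 0.01, against 0.11 and -0.05 over all genes, of which 59.3% and 67.0% were called. Mean Lrp1 was 15.1 CPM in MG1, 9.24 in MT1, 12.7 in MG2 and 143.9 in MT2. Tlr2, a receptor reported for serum amyloid A, rose by 0.87 and 1.91 (adjusted p 0.0208 and 8.30e-07). Slc22a17, the lipocalin 2 receptor gene, fell in both mice (-1.80 and -1.97, adjusted p 0.0112 and 0.000313), from few UMIs in mouse 1 (18 in MG1 and 36 in MT1).

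**Figure D5:**
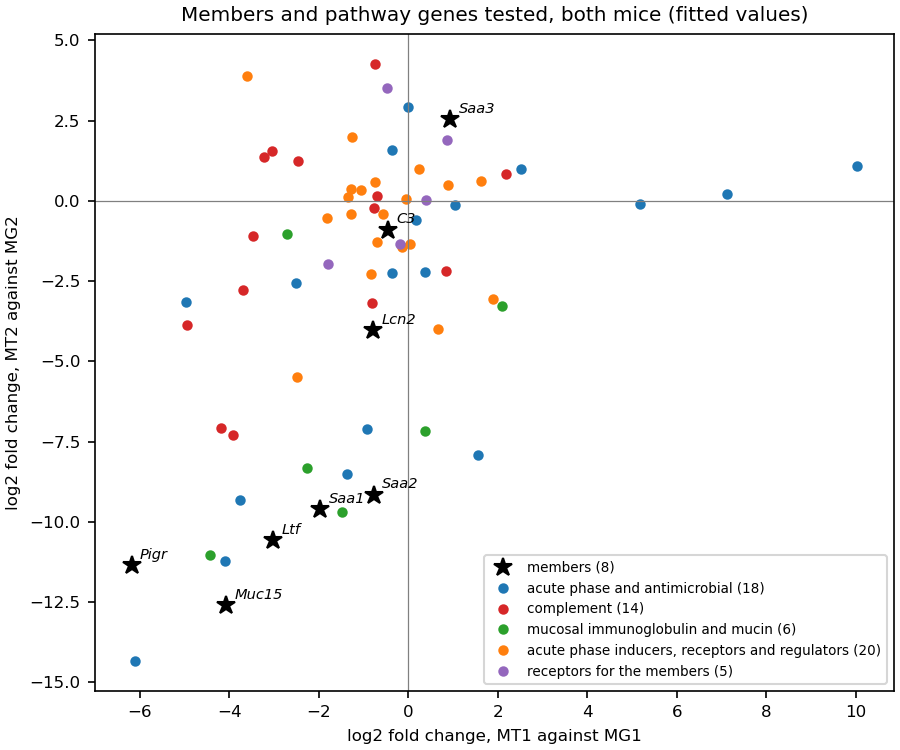
Fitted log2 fold changes from gland to tumor in mouse 1 (x axis) and mouse 2 (y axis) of the 8 genes (stars) and the tested genes of the 5 lists (dots). Values of genes with 0 UMIs in a group depend on the prior count of the fit. Of the stars, Saa3 alone is above 0 on both axes, although it was not called in mouse 1.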

How the data were processed

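Drop-seq libraries of 4 groups were analysed. The authors aligned reads with STAR to GRCm38.p6, used the Drop-seq tools, and deposited raw UMI counts per gene and cell; 0 columns of per-sample values were left unused. Counting of strand and paralogs is not given in the sources used here. Cells (at least 800 genes and 1111 UMIs each) were grouped without the 8 genes by Leiden clustering (leidenalg 0.10.2, through scanpy 1.11.5, python 3.11.15) on 3000 variable genes, 30 components and 20 neighbours at resolution 0.6, and clusters were named from marker lists. Doublets were kept, since the caller marked 51 cells (0.241%). Libraries shared at most 7 barcodes. Counts were summed per library outside stromal clusters, or per class (20 or more cells in at least 2 libraries of both groups), and compared by the quasi-likelihood test of edgeR (version 4.0.16, R 4.3.3) after filterByExpr and TMM scaling, at a Benjamini-Hochberg adjusted p under 0.05 over all genes. The procedure was tested on simulated data. The mouse identity in the labels pairs gland and tumor, and this pairing is the block of the fit by mouse. Bounds use 3 counts, intervals are exact 95% Clopper-Pearson, and both cover counting error only. Alternatives were DESeq2 1.42.0, RLE scaling, no filter, other cell sets, other clusterings and leaving out libraries. The members and lists were chosen with earlier results of these data known. Named genes are the 8 members, up to 3 genes per list and direction with the largest mean change among those called alike in both mice, the 3 most similar genes per member (mean of at least 10 CPM) and markers of other sources. Levels of Il6, Cebpb and Lrp1 are given besides.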

Additional observations from a re-analysis of the deposited data

Results flagged for a closer look

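The change from gland to tumor differed between the mice, by the interaction term of the library fit, for 6 of the 8 genes. The difference, mouse 2 minus mouse 1 on the log2 scale, was -3.25 for Lcn2, -7.55 for Ltf, -7.63 for Saa1 and -8.38 for Saa2. It was -8.52 for Muc15 and -5.17 for Pigr, whose MT2 libraries had 0 UMIs, so these fitted values depend on the prior count and are no bounds. Each group is 1 tissue of 1 animal, and mouse and library preparation cannot be told apart.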

How the results depend on the processing

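Over the settings tried, 736 of 767 fold changes of the 8 genes kept their direction and their side of the threshold. This count includes fits without a library of a group outside the contrast, which enters only through scaling, filter and shared spread. With all cells, C3 reversed for the difference between the mice (0.52) and for MG1 against MG2 (0.50), and it was called in mouse 1 (-2.26). Leaving out 1 library moved the mouse 1 change of Saa2 between -2.01 and 1.99 and that of C3 between -0.94 and 0.13. The difference between the mice moved between -1.01 and 0.079 for C3 and between -4.72 and 2.05 for Saa3. For MG1 against MG2 the count of all genes called was 1140 with all cells and 8 with only the groups of the contrast, against 733, and it ranged from 236 to 1609 leaving out 1 library, with members called from 3 to 6 and 0 with only those groups. In the fit by mouse, DESeq2 with the replicate block called 1337 genes and 5 members, where edgeR called 0 with the block and 0 without it (3082 genes at an unadjusted p under 0.05). RLE scaling shifted the median of all genes in mouse 1 from 0.11 to 0.00, with 3956 higher and 4153 lower calls against 4388 and 3702, and C3 was then called in mouse 1 (-0.60, adjusted p 0.0376). Of levels by class, 325 of 344 stayed within their counting interval under other clusterings. Shares of cells moved with thinning in 86 of 184 cases. Without the cell with the most UMIs, an alternative chosen after seeing the data, 9 of 89 library levels moved beyond 1 SD. Depth limits Saa3 in MG1 (5 UMIs) and Pigr in MT1 (30 UMIs).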
